A study of Mus musculus with 23 samples.

Results

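The genes described here are Nfe2l2, which encodes the transcription factor NRF2, its inhibitor Keap1, and 8 genes of redox defense: Gclc, Gclm, Txnrd1, Prdx1, Srxn1, Nqo1, Gpx2 and Hmox1. They were picked by gene symbol, and each symbol matched 1 of the 24917 gene loci counted. The RNA came from the colonic epithelium of male C57BL/6 mice that entered the regimens at 6 weeks of age and stayed on them for 43 weeks. LF mice ate a diet with 10% of calories from fat throughout, HF mice ate one with 60% throughout and became obese, and HF-LF mice ate the high-fat diet for 15 weeks and the low-fat diet for the next 28. Batch 1 held 4 LF, 3 HF and 4 HF-LF samples, and batch 2 held 4 LF, 3 HF and 5 HF-LF samples, 23 in all. No transgene or deletion is named for any group. The labels do not say whether the batches hold different mice, so the p-values measure the spread between these samples. The study's methods name 5 mice for each regimen, while the batches together held 8 LF, 6 HF and 9 HF-LF samples. Some mice may therefore be in both batches, and the fits over both treat the samples as separate. The questions asked were how these genes differed between obese and lean mice, and whether they still differed after weight loss.

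NRF2 is held in the cytoplasm by KEAP1, which hands it to a ubiquitin ligase for degradation. Oxidants and electrophiles modify cysteines of KEAP1, NRF2 then accumulates, pairs with small MAF proteins and binds antioxidant response elements near genes of glutathione synthesis, thioredoxin recycling and detoxification. Because NRF2 is controlled mostly at the protein level, its mRNA is a poor gauge of its activity. In the gut this system meets oxidants from microbes, food and the epithelium's own oxidases, and Gpx2 is the glutathione peroxidase typical of the gastrointestinal epithelium.

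The core of the antioxidant response element, TGACNNNGC, is shown here wherever it occurred around the annotated starts, because most of these genes are known as NRF2 targets. RefSeq windows on GRCm38.p6, running from 250 bases before the start to 50 after it, were searched on both strands. A window was at hand for 8 of the 10 genes, all but Gclc and Hmox1, and 5 of the 8 held the core. Each sequence below is printed 5′ to 3′ on the strand that reads TGACNNNGC, with the core in capitals and 10 flanking bases on each side.
Nfe2l2, chr2:75704885-75704913, minus strand: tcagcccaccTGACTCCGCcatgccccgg
Gclm, chr3:122245413-122245441, minus strand: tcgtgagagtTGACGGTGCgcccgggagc
Txnrd1, chr10:82859104-82859132, minus strand: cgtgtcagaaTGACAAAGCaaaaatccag
Srxn1, chr2:152105542-152105570, minus strand: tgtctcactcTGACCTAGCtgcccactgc
Prdx1, chr4:116685456-116685484, minus strand: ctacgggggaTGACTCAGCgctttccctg

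The core lay 125 to 133 bases before the start in Prdx1, 126 to 134 before it in Gclm and 232 to 240 before it in Nfe2l2. In Txnrd1 it lay 84 to 92 bases before the second of 3 annotated starts. In Srxn1 it lay 29 to 37 bases after the start. The windows of Keap1, Nqo1 and Gpx2 did not contain these letters, which says nothing about sites elsewhere. Of all 32851 promoter windows 12.4% held the core, and of the 27025 gene symbols with a window 14% did, so a match by itself is common.

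The promoters of Prdx1 and Gpx2, the members with the largest diet differences, are shown for comparison over the 150 bases before the start, in the direction of the gene. The capitals in Prdx1 mark the same core read on the other strand, and Gpx2 has none.
Prdx1, chr4:116685449-116685598, plus strand: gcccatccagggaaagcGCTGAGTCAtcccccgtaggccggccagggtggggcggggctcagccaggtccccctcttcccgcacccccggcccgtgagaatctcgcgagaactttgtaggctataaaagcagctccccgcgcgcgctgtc
Gpx2, chr12:76795555-76795704, minus strand: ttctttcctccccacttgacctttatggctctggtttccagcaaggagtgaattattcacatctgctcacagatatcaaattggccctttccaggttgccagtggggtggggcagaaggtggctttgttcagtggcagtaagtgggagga

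Each sample held between 29189922 and 65320947 counted read pairs (median 37475614). Levels are given as normalised read counts in CPM, which scales each library to a common total, set on one scale over all 23 samples. As a check of the tissue, the summed level of 7 epithelial genes (keratins, adhesion and intestinal identity genes) was 11492 to 16255 CPM. The summed level of 5 smooth muscle markers was 0.545 to 46.5 CPM, and that of 8 macrophage markers was 5.27 to 14.1 CPM. All 10 genes passed the filter on low counts in each batch.

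The genes differed widely in abundance. Per kilobase of annotated exon, Gpx2 (123 ± 35.5 CPM per kb, SD, n = 8 LF samples), Nfe2l2 (123 ± 9.73) and Prdx1 (121 ± 16.4) were the highest. Their order differed by batch. In batch 1 Gpx2 was at 93.4 ± 22.3 CPM per kb (n = 4), below the means of Prdx1 (115 ± 16.6) and Nfe2l2 (126 ± 10.5) with overlap. In batch 2 Gpx2 was at 153 ± 7.03, above all samples of Nfe2l2 (120 ± 9.36) and overlapping Prdx1 (128 ± 15.7) at the edge. Txnrd1, the cytosolic thioredoxin reductase, followed at 66.2 ± 3.78 CPM per kb. Srxn1 (41.4 ± 4.57), Gclc (39.6 ± 5.23) and Nqo1 (29.4 ± 6.81) came next with overlapping ranges, then Keap1 (16.1 ± 1.24) and Gclm (12.1 ± 1.65), which overlapped only at the edge. Hmox1, the stress-induced haem oxygenase, was near the bottom at 0.859 ± 0.0877 CPM per kb, with 35 to 126 read pairs per sample. Gclc and Gclm, the catalytic and modifier subunits of one enzyme, were thus unequal in level. Exon length was the union over annotated transcripts, so a long minor transcript lowers a gene's value.

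**Figure D1:**
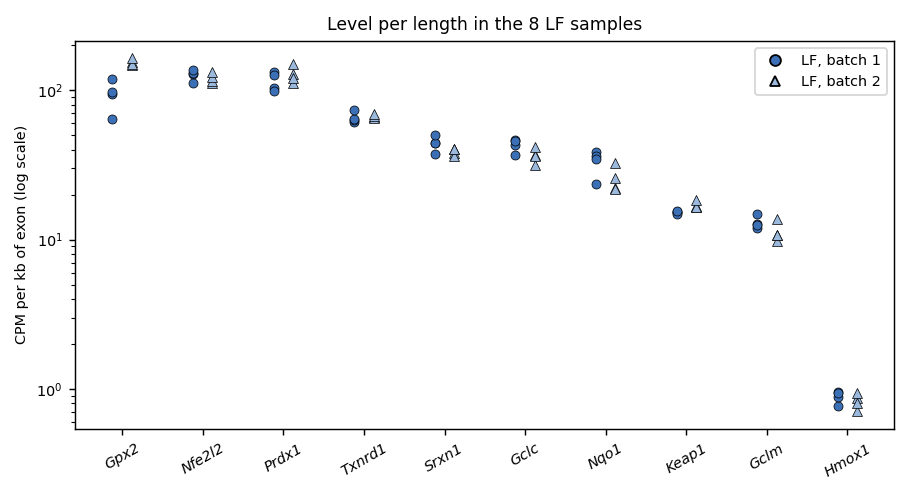
Level of each gene per kilobase of annotated exon (vertical axis, CPM per kb, log scale) in the LF samples of batch 1 (circles) and batch 2 (triangles), with genes ordered by their mean over both batches. Gpx2, Nfe2l2 and Prdx1 lead with means of 123, 123 and 121, Gpx2 lower in batch 1 than in batch 2, and Hmox1 is far below the rest at 0.859.

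In obese mice the peroxide-removing enzymes Gpx2 and Prdx1 and the peroxiredoxin-repair enzyme Srxn1 were higher, while Nfe2l2, Keap1 and Gclc were not called, with log2 fold changes of -0.04, -0.11 and -0.02. With batch as a covariate, these 3 genes rose in HF against LF mice by 1.26- to 1.63-fold and none of the 10 fell. Txnrd1 had an adjusted p of 0.0179 at 1.15-fold, under the 1.2-fold threshold, and the other 6 did not pass. A gene was called where the adjusted p, from edgeR's quasi-likelihood test with Benjamini-Hochberg adjustment over all genes, was under 0.05 and the fold above 1.2. The share of all tested genes called was 18.1% in either direction and 9% for higher, against which the 3 of 10 must be read. The median log2 fold change was 0.27 over the 10 genes and -0.01 over the 14385 genes tested.

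By batch, 3 of the 10 were called in batch 2, again Srxn1, Gpx2 and Prdx1, all higher, where 7.44% of all genes were called and 3.03% called higher. In batch 1 none was called, as was the case for all genes (0%), whereas 3 of 10 (Keap1, Gpx2, Prdx1) had an unadjusted p under 0.05 beside 22.2% of all genes. HF and LF samples did not overlap for 3 of 10 genes in batch 1 (13.7% of all genes) and for 5 of 10 in batch 2 (27.3%). Gpx2 and Prdx1 were the members without overlap in both batches. A test of the difference between batches found no member whose change differed (adjusted p from 0.83 to 0.98), and 0 of 14385 genes passed it, with 943 at an unadjusted p under 0.05.

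**Figure D2:**
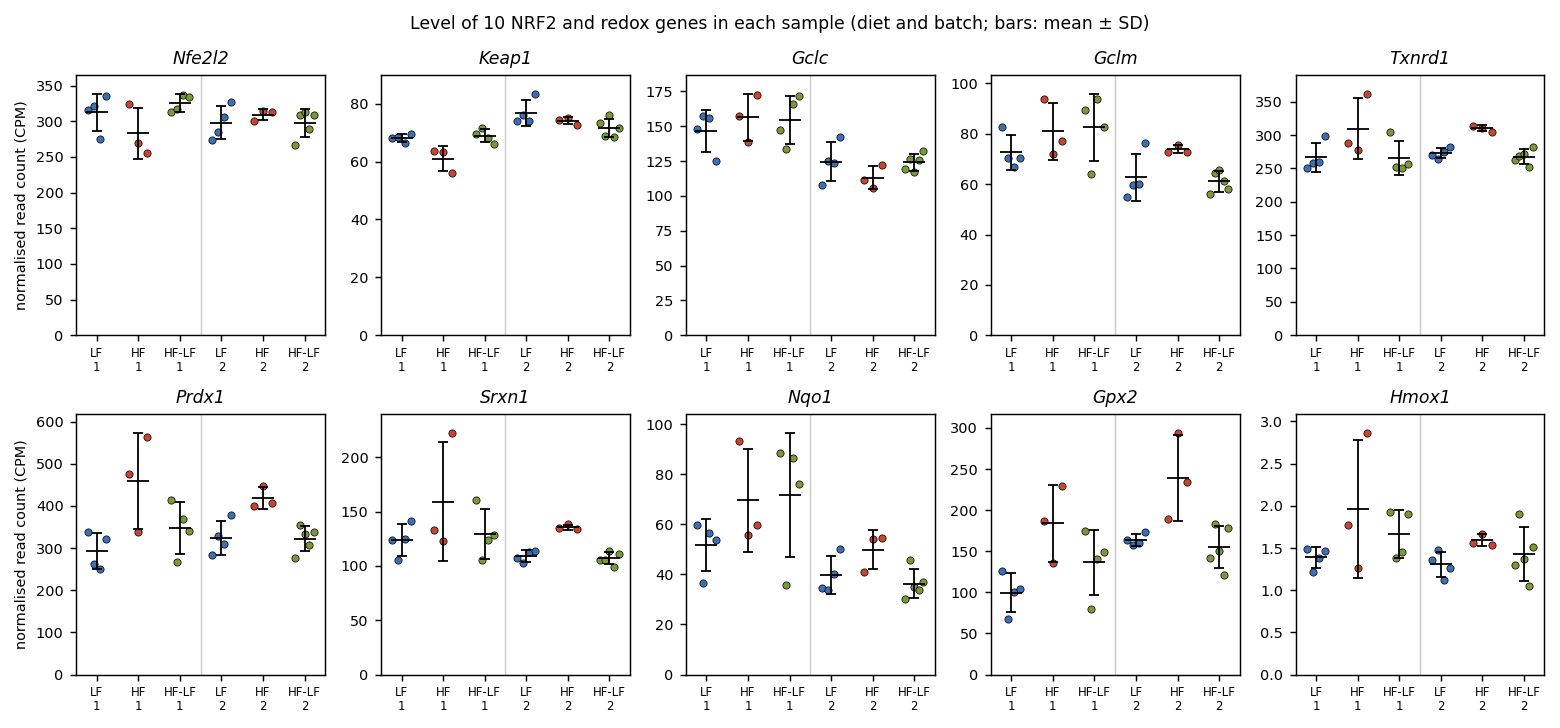
Level of each gene in every sample (vertical axis, CPM from 0) by diet and batch, with the batch number under each diet and black bars for the mean ± SD of 3 to 5 samples. Gpx2 and Prdx1 in HF samples lie above every LF sample of their batch, whereas Nfe2l2 and Gclc groups overlap.

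Among the regulators, Nfe2l2 overlapped between diets in both batches. In batch 1 it was at 316, 322, 276 and 336 CPM in LF, 324, 269 and 256 in HF, and 313, 317, 337 and 335 in HF-LF samples. In batch 2 the means were 298 ± 23.2 in LF (SD, n = 4), 309 ± 8.02 in HF (n = 3) and 297 ± 19.4 in HF-LF samples (n = 5). The log2 fold change of HF against LF was -0.15 ± 0.10 (SE) in batch 1 and 0.05 ± 0.07 in batch 2, and -0.04 over both, with a 95% interval from -0.17 to 0.09.

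Keap1, the substrate adaptor that marks NRF2 for degradation, had 63.5, 63.4 and 56.1 CPM in HF 1, HF 2 and HF 3 of batch 1. The LF samples there were at 68.3, 68.5, 66.4 and 69.4 CPM, so that every HF sample was below every LF sample. Its log2 fold change was -0.16 ± 0.07 with an unadjusted p of 0.0476 and an adjusted p of 0.221. In batch 2 the LF and HF samples overlapped, at 76.9 ± 4.44 and 74.0 ± 1.19 CPM, with an adjusted p of 0.522. Over both batches the log2 fold change was -0.11 ± 0.05, with an adjusted p of 0.0879.

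Glutathione synthesis begins with glutamate-cysteine ligase, made of Gclc and Gclm. Gclc overlapped between diets in both batches, with log2 fold changes of HF against LF of 0.09 ± 0.11 in batch 1 and -0.14 ± 0.08 in batch 2. Gclm in batch 2 was at 54.8, 59.6, 60.2 and 76.3 CPM in LF samples and at 72.8, 75.6 and 72.9 in HF samples. The HF samples were close together and above all LF samples but the highest, LF 4. Its log2 fold change was 0.23 ± 0.09 with an adjusted p of 0.0992, and without LF 4 it became 0.34 with an adjusted p of 0.00904, in a range of 0.00904 to 0.296 over all samples left out. In batch 1 Gclm was at 72.6 ± 6.83 CPM in LF and 81.0 ± 11.3 in HF samples, with an adjusted p of 0.472.

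Txnrd1, Prdx1 and Srxn1 act in the thioredoxin branch. Txnrd1 regenerates reduced thioredoxin from NADPH. In batch 2 it was at 270, 264, 274 and 283 CPM in LF samples and at 314, 311 and 305 in HF samples, with no overlap. Its log2 fold change there was 0.18 ± 0.06, at an adjusted p of 0.0529. In batch 1 the HF samples were at 289, 277 and 362 CPM and overlapped the LF samples, which reached 299. Eid3 overlaps Txnrd1 on the same strand, and its counts came to 7346 against 254557 for Txnrd1 over all samples.

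Prdx1, an abundant cytosolic peroxiredoxin that reduces hydrogen peroxide, was at 337, 263, 251 and 321 CPM in the LF samples of batch 1. The HF samples were at 476, 339 and 564 CPM, all above the LF samples, by a narrow margin for HF 2. In batch 2 the LF samples were at 283, 328, 309 and 378 CPM and the HF samples at 399, 448 and 406, again without overlap. On the log2 scale the change was 0.65 ± 0.18 in batch 1 (adjusted p = 0.155) and 0.36 ± 0.10 in batch 2 (adjusted p = 0.0411). Over both batches Prdx1 rose 1.42-fold (log2 0.51 ± 0.11, adjusted p = 0.00531), and the call held whichever of the 23 samples was left out.

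Srxn1 encodes sulfiredoxin, which repairs overoxidised peroxiredoxins. In batch 2 it was at 108, 103, 113 and 114 CPM in LF samples and at 135, 138 and 134 in HF samples. The HF samples differed by little and all lay above the LF samples, giving a log2 fold change of 0.31 ± 0.06 (adjusted p = 0.0186). In batch 1 the HF samples were at 133, 123 and 222 CPM against 124, 105, 124 and 141 in LF samples, with overlap. HF 3 alone stood well above the LF range there, and the batch 1 value of 0.36 on the log2 scale fell to 0.05 without it. Over both batches Srxn1 rose 1.26-fold (adjusted p = 0.0189), and without HF 3 of batch 1 the log2 value was 0.22 with an adjusted p of 0.0635, the highest in a range from 0.00384.

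Nqo1, the quinone reductase often used as a readout of NRF2, was spread widely within groups. In batch 1 it was at 59.8, 36.7, 56.5 and 53.6 CPM in LF samples and at 93.2, 55.8 and 59.6 in HF samples. The HF-LF samples of that batch were at 88.7, 35.6, 86.4 and 76.3 CPM, so 3 of the 4 were above all LF samples and 1 was below them. In batch 2 it was at 34.6, 33.6, 40.05 and 50.2 CPM in LF and at 41.1, 54.3 and 54.5 in HF samples, with overlap through LF 4. The log2 fold change of HF against LF was 0.43 ± 0.27 in batch 1, 0.33 ± 0.15 in batch 2 and 0.38 ± 0.18 over both (adjusted p = 0.109). Without LF 4 of batch 2 the value over both was 0.48 with an adjusted p of 0.0404, the lowest in a range up to 0.248 over all samples left out.

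Gpx2, which reduces hydroperoxides with glutathione, had the largest difference among the 10. In batch 1 it was at 126, 68.0, 101 and 104 CPM in LF samples and at 187, 136 and 229 in HF samples. In batch 2 it was at 164, 157, 160 and 174 CPM in LF samples and at 189, 294 and 234 in HF samples. Each HF sample was above each LF sample of its batch, yet the LF samples of batch 2 were themselves above those of batch 1 and above HF 2 of batch 1. The log2 fold change was 0.88 ± 0.25 in batch 1 (adjusted p = 0.160) and 0.55 ± 0.14 in batch 2 (adjusted p = 0.0381). Over both batches Gpx2 rose 1.63-fold (log2 0.71 ± 0.16, adjusted p = 0.00612), and the call held in each of the 23 fits that left out 1 sample. A pseudogene copy, Gpx2-ps1, had 519 counts over all samples beside 147923 for Gpx2.

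Hmox1, which breaks down haem, was scarce in all groups. In batch 1 it was at 1.49, 1.21, 1.38 and 1.47 CPM in LF samples and at 1.77, 1.26 and 2.86 in HF samples, with HF 3 the highest of all 23. In batch 2 the LF samples were at 1.12 to 1.48 CPM and the HF samples at 1.54 to 1.67, without overlap. Over both batches the log2 fold change was 0.39 ± 0.16 with an adjusted p of 0.0596. Without HF 3 of batch 1 it was 0.24, the lowest value among the fits that left out 1 sample.

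The number of members called in HF against LF mice of batch 2 depended on single samples. It was 0 without LF 1, LF 3, HF 2 or HF 3, 1 (Srxn1) without LF 2, and 5 without LF 4. Without LF 4 Nqo1 and Gclm joined the 3. Over all genes the calls went from 436 higher and 633 lower to 10 and 39 without LF 1 and 6 and 35 without LF 3. They were 4 and 11 without HF 2, 22 and 27 without HF 3, 116 and 220 without LF 2, and 1153 and 1407 without LF 4. The count of members thus moved with that of all genes. Over the 12 fits that left out 1 sample the log2 value was 0.28 to 0.33 for Srxn1, 0.31 to 0.45 for Prdx1 and 0.38 to 0.69 for Gpx2. In bulk RNA a smaller share of cells that express a gene and less RNA per cell cannot be told apart, and this holds for each value given here.

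After weight loss none of the 10 genes differed from LF mice by the test, in either batch or over both. The shares of all genes called in that comparison were 0% in batch 1, 0.00696% in batch 2 and 0% over both batches; with no more than 1 gene called among all, the count for the members carries little. At an unadjusted p under 0.05 none of the 10 passed either, where 591 of 14385 genes did over both batches, and DESeq2 called none. The intervals still allow sizeable differences: over both batches the 95% interval of the log2 fold change was -0.13 to 0.47 for Gpx2, -0.09 to 0.31 for Prdx1, and -0.17 to 0.49 for Nqo1. Nqo1 in batch 1 had log2 fold changes of 0.46 ± 0.25 in HF-LF and 0.43 ± 0.27 in HF against LF mice, side by side, whereas in batch 2 they were -0.13 ± 0.13 and 0.33 ± 0.15. These comparisons share their LF samples.

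Against continued high-fat feeding, HF-LF mice had lower Nqo1, Gclm, Srxn1, Gpx2 and Prdx1 in batch 2. The 5 called genes fell by 0.46, 0.27, 0.34, 0.62 and 0.37 on the log2 scale in that order, with adjusted p-values of 0.0374, 0.0422, 0.00989, 0.0145 and 0.0213. Of all genes 14.5% were called there and 5.61% called lower. The HF-LF samples were at 142, 183, 150, 121 and 179 CPM for Gpx2 and at 105, 105, 113, 99.4 and 111 CPM for Srxn1, below every HF sample in both cases. Txnrd1 had an adjusted p of 0.0213 at a fold of 0.863, under the fold threshold, with HF-LF samples from 252 to 282 CPM.

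Batch 1 had no member called in HF-LF against HF mice, beside 0.00693% of all genes, whereas 10.9% of all genes had an unadjusted p under 0.05. By edgeR, among the members Prdx1 (lower in HF-LF, unadjusted p = 0.0355) and Keap1 (higher, unadjusted p = 0.0411) did. Keap1 was at 66.2 to 71.7 CPM in HF-LF samples of batch 1, above every HF sample there (log2 0.17 ± 0.07, adjusted p = 0.445). Gpx2 there was at 175, 80.3, 141 and 149 CPM in HF-LF samples, a mean of 136 CPM between those of LF (99.7) and HF (184) samples, and the samples overlapped both groups. Over both batches Srxn1, Gpx2 and Prdx1 fell, by 0.32, 0.54 and 0.39 on the log2 scale (adjusted p = 0.0324, 0.0258 and 0.0200), where 10.3% of all genes were called and 4.9% called lower. Without HF 3 of batch 1 none of the 3 was called, and without HF 2 of batch 2 Prdx1 alone was. In these fits the calls over all genes went from 783 higher and 705 lower to 229 and 272, and to 229 and 315. In batch 2 the count of 5 was 0 without HF 2 and 2 (Srxn1 and Gpx2) without HF 3, and it was 3 (Srxn1, Gpx2 and Prdx1) without HF-LF 1, 4 or 5. Over all genes the batch 2 calls went from 1278 higher and 806 lower to 9 and 2 without HF 2 and 486 and 198 without HF 3. They were 623 and 257 without HF-LF 1, 673 and 284 without HF-LF 4, and 1120 and 845 without HF-LF 5.

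**Figure D3:**
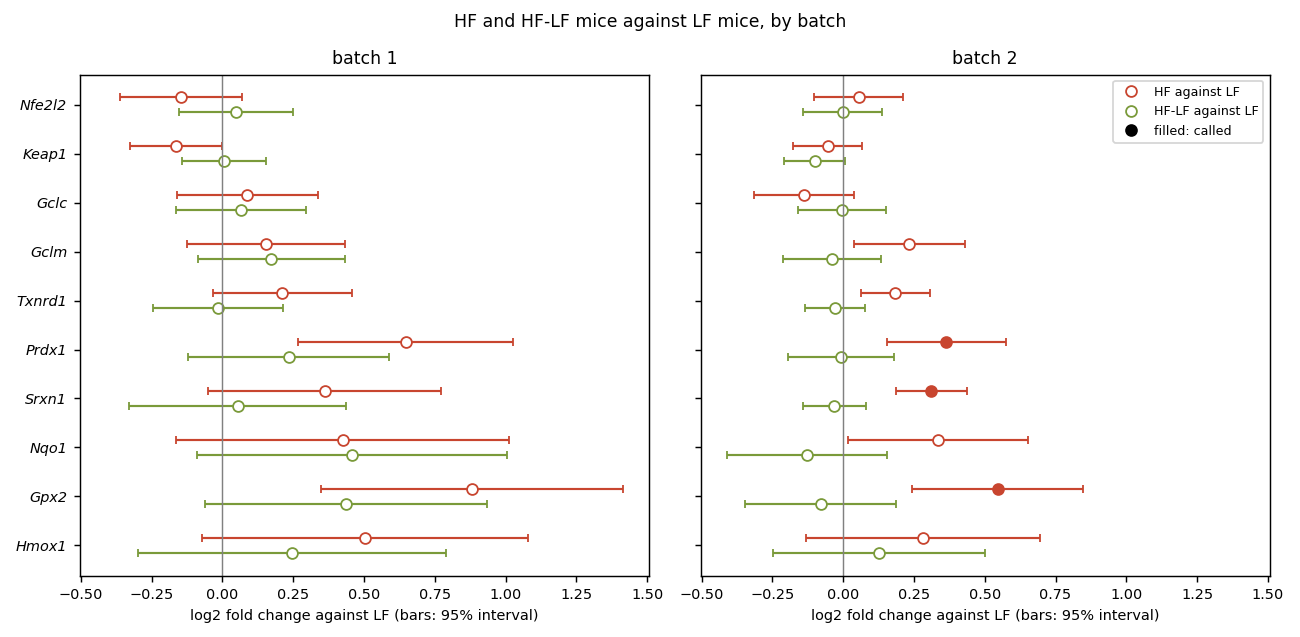
Log2 fold change of HF (red) and HF-LF (green) against LF mice for each gene in batch 1 (left) and batch 2 (right), with 95% intervals and filled points where the gene was called. Filled points appear for Prdx1, Srxn1 and Gpx2 in HF mice of batch 2, and every HF-LF interval includes 0.

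Some pairs of members varied together from sample to sample. After the mean of each diet and batch was removed, Pearson's r was positive for 35 of the 45 pairs of genes over the 23 samples. By a two-sided permutation test within groups (100000 permutations, adjusted over the 45 pairs), 11 pairs passed 0.05, all positive and with r above 0 in both batches. Spearman's rho passed for 10 of these 11. The samples share library composition and depth, and many other genes vary along the same lines. Among 14384 genes ranked by r with Gpx2, Prdx1, Nqo1, Hmox1 and Srxn1 were numbers 168, 232, 554 and 695. The share of all gene pairs that would pass was not computed, so the count of 11 cannot be called particular to the members.

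Txnrd1 and Srxn1, the thioredoxin-branch pair, had r = 0.90 and rho = 0.86 (permutation p = 1.7e-04, adjusted 0.00255, and 5.0e-05, adjusted 0.00113), with r = 0.91 in batch 1 and 0.87 in batch 2. Without the 2 samples farthest from the median of Txnrd1, r was 0.80. Nqo1 and Gclm had r = 0.82 and rho = 0.76 (permutation p = 9.2e-04, adjusted 0.0104, and 0.00189, adjusted 0.0170), with 0.87 and 0.72 by batch and 0.78 without the 2 farthest samples. Gpx2 and Prdx1 had r = 0.80 and rho = 0.83 (permutation p = 1.5e-04, adjusted 0.00255, and 3.0e-05, adjusted 0.00113), with 0.87 and 0.58 by batch and 0.77 without the 2 farthest. The pairing of Srxn1 with Hmox1 had r = 0.73 and rho = 0.60 (permutation p = 0.00597, adjusted 0.0299, and 0.0204, adjusted 0.0765), but 0.91 in batch 1 and 0.09 in batch 2, and 0.56 without the 2 farthest.

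Nfe2l2 passed with 1 other member, Gclm (r = 0.62, rho = 0.64, permutation p = 0.00516, adjusted 0.0290, and 0.00631, adjusted 0.0316, with 0.51 and 0.82 by batch and 0.55 without the 2 farthest). With Gpx2, Srxn1 and Txnrd1 its r was 0.14, -0.16 and -0.05. Keap1 and Gclc passed with none. LF 2 and HF-LF 2 of batch 1 were the lowest samples of their groups for Nqo1, Gpx2 and Srxn1, and HF 3 of batch 1 was the highest of its group for Txnrd1, Srxn1, Prdx1, Gpx2 and Hmox1.

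**Figure D4:**
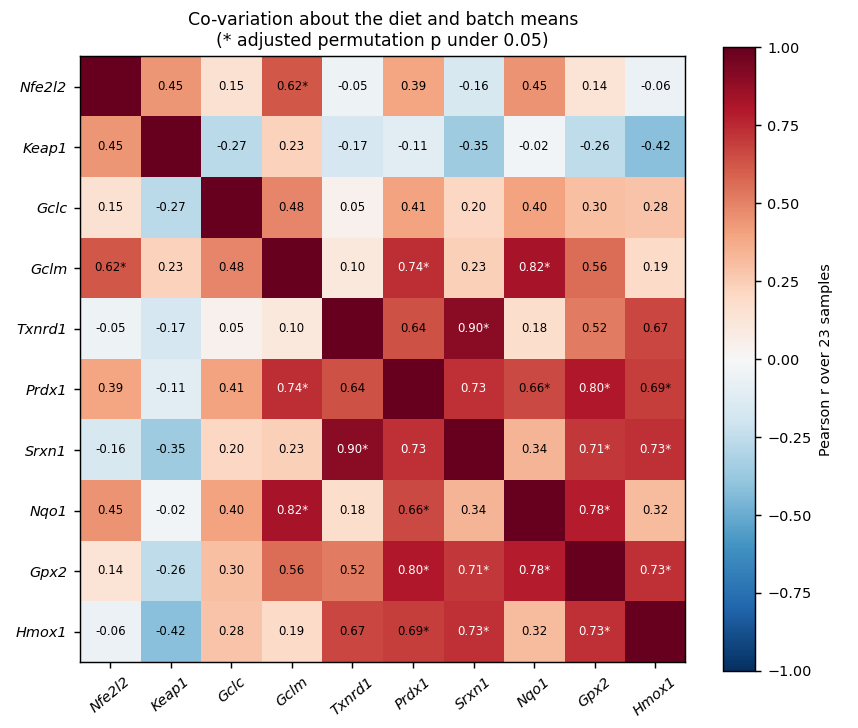
Pearson's r over 23 samples for each pair of genes after the mean of each diet and batch was removed (colour from -1 to 1, value in each cell, star where the adjusted permutation p is under 0.05). Txnrd1 with Srxn1 at 0.90 is the highest, and the rows of Keap1 and Gclc have no star.

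Among the 14384 genes ranked, some outside the set tracked Nqo1 and Gpx2 more closely than the other members did. With so many genes ranked against so few members, this was likely in advance. By r over the same 23 samples, the 5 genes most like Nqo1 were Gstp1 (0.94), Nipsnap1 (0.92), Slc39a11 (0.91), Ugt1a7c (0.91) and Slc22a18 (0.90), and the nearest member, Gclm, was number 79 of 14384. The 5 most like Gpx2 were Hdac3 (0.92), Ifitm2 (0.92), Lman1 (0.92), Banf1 (0.91) and Gstk1 (0.91), and the nearest member, Prdx1, was number 168. Gstp1 has a near-identical copy and Ugt1a7c shares exons with its family, so their counts are uncertain.

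The wider redox network was described by 9 lists with 130 genes, of which 124 were tested. Over both batches 22 of the 124 rose and 5 fell in HF against LF mice, and 97 were not called. Of all genes 9% were called higher there, as already given, and 9.11% lower. Without HF 3 of batch 1, a choice made after the values were seen, 16 of the 124 rose and 3 fell, while the calls over all genes went from 1294 higher and 1311 lower to 863 and 727. In batch 1 none was called, and in batch 2 6 were called higher and 2 lower. Of all 14377 genes tested in batch 2, 436 were called higher and 633 lower, 7.44% together. With both directions pooled the lists did not stand above that share, while the 6 called higher stand beside 3.03% of all genes. In HF-LF against HF mice 26 of the 124 were lower and 3 higher in batch 2, and 9 and 3 over both batches. Of all genes 5.61% and 4.9% were called lower there, and the batch 2 calls over all genes rested on HF 2, as given above. Each list count of HF against LF mice over both batches given below is to be read beside the 9% and 9.11% of all genes.

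Within glutathione metabolism 5 of 17 genes rose, none fell, and the list's median log2 fold change was 0.21. Chac1 and Chac2, which degrade glutathione, and Slc7a11, the cystine importer that feeds its synthesis, had the smallest p-values. For Slc7a11 and Chac1 HF 3 of batch 1 carried much of the size. Slc7a11 was at 5.31, 4.96 and 38.0 CPM in HF 1, HF 2 and HF 3 of that batch, and Chac1 at 0.765, 1.42 and 14.8. Slc7a11 rose by 1.45 ± 0.35 on the log2 scale (adjusted p = 0.00807), with 2.05 ± 0.58 in batch 1 and 0.68 ± 0.18 in batch 2. Chac1 rose by 2.25 ± 0.53 and Chac2 by 0.51 ± 0.12. Without HF 3 of batch 1 the values over both batches were 0.59 for Slc7a11 (adjusted p = 0.0251), 0.91 for Chac1 (0.0409) and 0.51 for Chac2 (0.0188), and those in batch 1 alone 0.40, 0.64 and 0.29. Slc7a11 and Chac1 are also known as targets of ATF4, a factor of the amino acid response. The other 2 that rose were Gsr, glutathione reductase, and Glrx3.

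Of 22 glutathione S-transferase genes 5 rose and none fell (median log2 0.20). Gstm5 (0.39 ± 0.09), Mgst1 (0.55 ± 0.14) and Gstm6 (0.40 ± 0.12) had the smallest p-values, and reads of the Gstm family can be split among close relatives. In batch 2, 11 of the 22 fell in HF-LF against HF mice and none rose, while over both batches 1 fell, beside 5.61% and 4.9% of all genes called lower. The 11 became 0 without HF 2 of batch 2, 1 without HF 3 and 8 without HF 1. Without HF 2 the calls over all genes in that comparison went from 1278 higher and 806 lower to 9 and 2, so the list's count moved with that of all genes.

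In the list of thioredoxins, peroxiredoxins and methionine sulfoxide reductases 5 of 18 rose and 1 fell (median log2 0.08). Txnl1 rose by 0.33 ± 0.08, Prdx4, the peroxiredoxin of the endoplasmic reticulum, by 0.66 ± 0.18, and Prdx3, the mitochondrial one, by 0.35 ± 0.10. Sesn2, a stress-induced sestrin, was the 1 that fell. Of 15 genes of NADPH supply 3 rose, namely Mthfd2 (1.30 ± 0.33) and Aldh1l2 (1.15 ± 0.31) of mitochondrial folate metabolism and Idh1 (0.35 ± 0.10), and none of the pentose phosphate enzymes was among them. In HF 1, HF 2 and HF 3 of batch 1 Mthfd2 was at 7.32, 7.02 and 44.0 CPM and Aldh1l2 at 2.10, 3.17 and 10.0 CPM, so HF 3 stood apart for these too. Without it the values over both batches were 0.53 for Mthfd2 (adjusted p = 0.0279) and 0.75 for Aldh1l2 (0.0499). Sod1 and the other 4 genes of superoxide dismutases and catalase were not called by edgeR or DESeq2. Sod1 was at a log2 fold change of 0.05 ± 0.08.

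Of 14 partners and competitors of NRF2 tested 1 rose and 3 fell, beside 9% of all genes higher and 9.11% lower, with a list median of -0.08. Bach2, a repressor that competes for the same elements, fell by 0.59 ± 0.12 on the log2 scale over both batches (adjusted p = 0.00383), with -0.35 ± 0.18 in batch 1 and -0.85 ± 0.14 in batch 2. The small MAF genes Mafk and Mafg fell too, Mafk by 0.32 ± 0.08, and Pgam5, a mitochondrial phosphatase that binds KEAP1, rose by 0.29 ± 0.08. Without HF 3 of batch 1 Pgam5 was at 0.22, under the fold threshold. Against HF mice Bach2 was higher in HF-LF mice by 0.65 ± 0.11 (adjusted p = 0.00533). Bach2 is best known from B cells, and of 4 B and plasma cell markers 1 passed the low-count filter in the fit over both batches. Their summed level was 0.930 to 3.35 CPM in LF and 0.772 to 2.34 CPM in HF samples. Summed T cell markers had means of 8.12, 6.42 and 9.43 CPM in LF, HF and HF-LF samples of batch 2, and 14.2, 11.2 and 9.48 in batch 1. The part of B or T cells in the Bach2 result was not tested.

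Among oxidant-producing enzymes 1 of 10 rose, Duoxa2, the maturation factor of dual oxidase 2 (0.67 ± 0.21), whose adjusted p was 0.0699 without HF 2 of batch 2. Of 9 haem and iron genes 1 rose, biliverdin reductase Blvra, which acts after haem oxygenase (0.33 ± 0.09); without HF 3 of batch 1 it was at 0.25, under the fold threshold. Of 14 other detoxification genes known as NRF2 targets 1 rose, Ptgr1 (0.58 ± 0.14), and 1 fell, Osgin1 (-0.35 ± 0.12), with a list median of 0.01. Beside 9% of all genes called higher and 9.11% lower, counts of 1 do not set these lists apart. Osgin1 was at -0.70 ± 0.16 in batch 1 and -0.02 ± 0.12 in batch 2, its call over both held in 16 of the 23 fits that left out 1 sample (adjusted p up to 0.126, without HF 3 of batch 1), and the test of the difference between batches passed no gene.

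**Figure D5:**
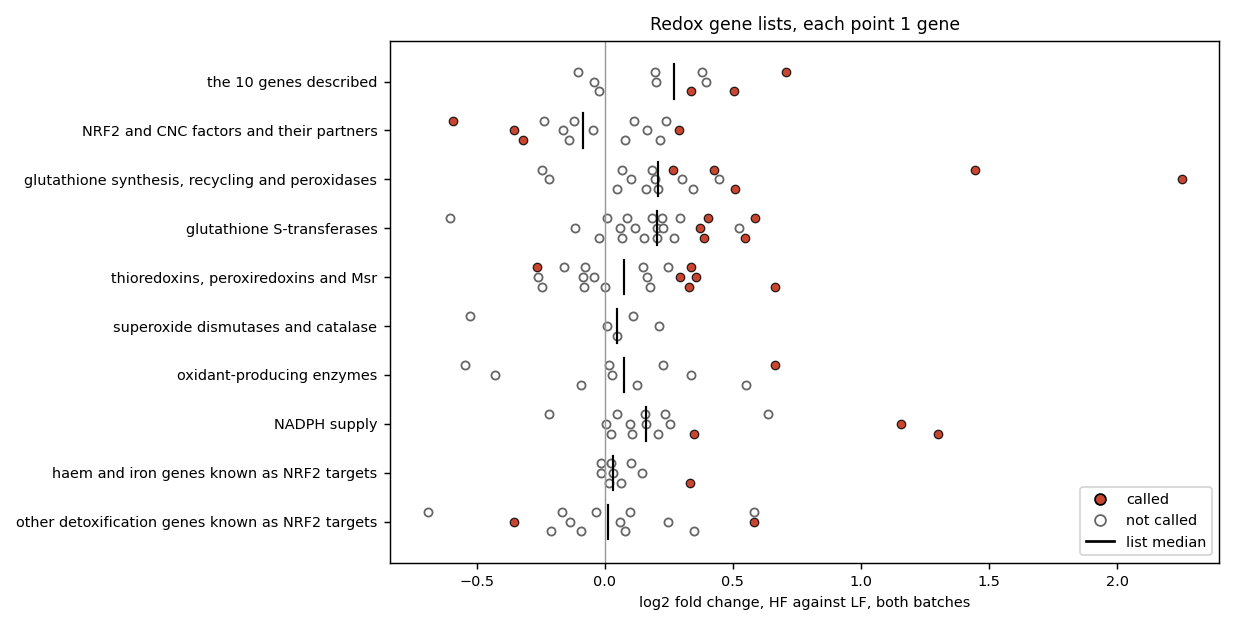
Log2 fold change of HF against LF mice over both batches (horizontal axis) for the 10 genes described and for each tested gene of 9 redox lists, 1 point a gene, red where called, with a black bar at each list's median. The 10 genes have a median of 0.27, and the points farthest to the right are Chac1 (2.25) and Slc7a11 (1.45), which without HF 3 of batch 1 were at 0.91 and 0.59.

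Some cell markers were called in HF against LF mice as well. Over both batches 9% of all genes were called higher and 9.11% lower, and in batch 2 alone 7.44% were called. The marker calls are to be read beside these shares. Of the 4 markers of dividing cells, Top2a, Pcna and Ccnb1 rose over both batches by 0.53 ± 0.17, 0.32 ± 0.08 and 0.61 ± 0.22, and Mki67 was at 0.23 ± 0.18. Their summed level was 228 to 396 CPM in LF and 331 to 564 in HF samples of batch 1, and 412 to 488 and 417 to 503 in batch 2. The summed smooth muscle markers were 1.16 to 10.7 CPM in LF and 0.545 to 9.33 in HF samples of batch 1, and 5.34 to 28.8 and 0.848 to 4.39 in batch 2. The summed epithelial markers were 12076 to 14332 CPM in LF and 12747 to 14591 in HF samples of batch 1, and 11492 to 13940 and 13439 to 14091 in batch 2. The summed goblet cell markers of batch 2 were 31994 to 39024 CPM in LF and 27927 to 30896 in HF samples, without overlap. In batch 1 these sums were 19307 to 30254 and 16849 to 23651 CPM, with overlap. Yet the median log2 fold change of the 6 goblet cell genes was 0.18 in batch 2 and -0.07 in batch 1. In batch 2 the sum and the median thus went opposite ways, and a sum is weighted to the most abundant genes. Tff3, one of the 6, rose over both batches by 0.42 ± 0.13. The summed T cell markers of batch 2 were 7.37 to 9.002 CPM in LF and 5.78 to 7.33 in HF samples, also without overlap. Over both batches the stem cell marker Smoc2 rose by 0.29 ± 0.09, and the stem cell marker Axin2 (-0.44 ± 0.10), the macrophage marker C1qc (-1.29 ± 0.47) and the fibroblast marker Pdgfra (-1.201 ± 0.44) fell. In batch 2 alone the smooth muscle marker Actg2, which was lower, and the red blood cell marker Alas2 were called as well. Alas2 was scarce, at 0.160 to 0.665 CPM in LF and 0.463 to 2.12 in HF samples of batch 2. The other 4 red blood cell markers had no count in any sample, so Alas2 alone says little about these cells. HF 3 of batch 1, which carried several values given above, also stood apart in summed markers. In HF 1, HF 2 and HF 3 of that batch the fibroblast sums were 21.3, 28.8 and 2.88 CPM and the smooth muscle sums 9.33, 9.18 and 0.545. The endothelium sums were 5.88, 6.96 and 1.66 CPM, and the dividing-cell sums 388, 331 and 564. HF 2 of batch 2 had the lowest fibroblast and smooth muscle sums of its batch, 4.22 and 0.848 CPM. The part of these cells in the differences of Gpx2, Prdx1 and Srxn1, or in the values of these samples, was not tested.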

How the data were processed

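Ribosome-depleted, stranded total RNA from 23 colonic epithelium samples was sequenced in pairs. The authors deposited raw read counts per gene, made per the labels and the study's methods by adapter trimming with cutadapt (1.2.1), alignment to mm10 with STAR (2.5) and counting with featureCounts (1.5.0-p1); whether counting used strand is not given in the sources used here. Here edgeR 4.0.16 (R 4.3.3) was run on the counts, with TMM scaling, filterByExpr and the quasi-likelihood test, within each batch and over both with batch as a covariate, with all 3 diets in each fit. Genes at an adjusted p under 0.05 and above 1.2-fold were called, after the study's thresholds. DESeq2 1.42.0, limma 3.58.1, median-of-ratios scaling, no filter, a block and leaving out each sample were alternatives. The models were tested on simulated data. The members, lists and tests were chosen with earlier results of these data known. Named genes were all members, up to 3 called genes of smallest p per list (or, with none called, the most abundant gene), and the 5 genes most like Nqo1 and Gpx2; Gsr, Glrx3, Sesn2 and Mafg were named after their values were seen. Same-numbered samples of different diets in a batch had r from -0.372 to 0.396 about their group means (mean 0.0662 over 20 pairs). Other-numbered samples had r from -0.434 to 0.446 (mean -0.02 over 67 pairs). The numbers were not taken as pairs, though this does not show that no pairing exists, and fits with the number as a block are given below. No 2 samples of a group agreed within sampling noise. Depth was 29189922 to 65320947 read pairs per sample.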

Additional observations from a re-analysis of the deposited data

Results flagged for a closer look

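In the HF-LF group of batch 1, sample HF-LF 1 had 304 CPM of Txnrd1, where the other 3 were at 252, 251 and 257 CPM. Its gap to the next sample was 0.889 of the group's whole range, which marks it as far from the others. This was the only such sample among 40 combinations of gene and group with at least 4 samples, and chance alone marks about 1 in 20. The same sample was the highest of its group for Srxn1, Gpx2 and Prdx1. No explanation was tested.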

How the results depend on the processing

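The number of members called in HF against LF mice of batch 1 was 0 by edgeR, 2 (Gpx2 and Prdx1) by DESeq2 and 1 (Gpx2) with the replicate number as a block. With all samples kept, neither the block nor any other planned setting moved the other 8 counts of members by over 1.5 times. Leaving out 1 sample each gave ranges of 0 to 2 members in batch 1, 0 to 5 in batch 2 and 2 to 5 over both for HF against LF, 0 to 5 in batch 2 and 0 to 3 over both for HF-LF against HF, and 0 in all other comparisons. The log2 fold change of Nqo1 in HF-LF against HF mice of batch 1 was 0.033, and -0.0485 with the replicate block. That of Nfe2l2 in HF against LF mice over both batches ranged from -0.0636 to 0.0183 when 1 sample was left out, and that of Gclc from -0.0564 to 0.0262. With the block Gclm in batch 2 and Nqo1 over both batches also passed (adjusted p = 0.0324 and 0.0300), and DESeq2 passed Hmox1 over both batches (0.0413). The glutathione S-transferase list had 5 genes called by edgeR and 8 by DESeq2. Over all genes, HF against LF calls in batch 1 were 0 by edgeR, 478 by DESeq2 and 92 with the block. In batch 2 they were 1069, 1856 and 2080 in that order. The cause of these shifts was not tested. Treating same-numbered samples of 1 diet in both batches as 1 mouse, with limma, gave a correlation of -0.102 and changed no call of a member over both batches. In that fit 2890 genes were called in HF against LF mice, beside 2605 by edgeR. With a correlation below 0 it puts no penalty on repeated mice, so the unchanged calls cannot show what repeated mice would do. Whether equal numbers mean the same mouse is not stated in the labels. Of the 10 members Hmox1 had the fewest read pairs, 35 to 126 per sample. Leaving out each sample for the named genes of the redox lists was added after the data were seen.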
